A study of Mus musculus with 4 samples.

Results

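This set of 9 genes of zinc handling was chosen by symbol from the 22079 gene identifiers in the deposited table. They are the metallothionein genes Mt1 and Mt2, the metal-responsive transcription factor gene Mtf1, the ZIP importer genes Slc39a1, Slc39a2, Slc39a4 and Slc39a14, and the ZnT transporter genes Slc30a1 and Slc30a10; all 9 were found once each. RNA came from primary hepatocytes, the main working cells of the liver, of wild-type (WT) mice and of mice lacking Prom1 (genotype Prom1-/-, here KO), a membrane protein gene. There were 2 libraries per genotype (WT 1, WT 2, KO 1 and KO 2), and the design text calls them biological replicates from males of matched age. All animals were of strain C57BL/6 and 8 weeks old. Both genotypes were plated in 199 medium with 10% serum and 10 nM dexamethasone, a synthetic glucocorticoid, for 4 hours and then spent the night without serum. The labels name no zinc or other metal treatment and do not say whether the gene is lost in hepatocytes alone or in the whole animal.

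Metallothioneins are small proteins whose many cysteines bind zinc and copper, and in the liver they act as a store and buffer of these metals. When free zinc rises, the zinc-sensing factor MTF1 binds metal response elements in the promoters of Mt1, Mt2 and Slc30a1 and raises their transcription; glucocorticoids and inflammatory cytokines also induce liver metallothioneins. ZIP proteins (Slc39 genes) bring metal into the cytosol from outside the cell or out of organelles, and ZnT proteins (Slc30 genes) carry it out of the cytosol.

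The 2 metallothionein messages are related but differ enough to be told apart in sequence, which is why their coding sequences are shown. Each has 186 coding bases including the stop codon, and 20 of the 61 codons before the stop encode cysteine. From the GENCODE M21 transcripts the coding sequences read as follows, 5′ to 3′, with the bases that differ between them in capitals.
Mt1: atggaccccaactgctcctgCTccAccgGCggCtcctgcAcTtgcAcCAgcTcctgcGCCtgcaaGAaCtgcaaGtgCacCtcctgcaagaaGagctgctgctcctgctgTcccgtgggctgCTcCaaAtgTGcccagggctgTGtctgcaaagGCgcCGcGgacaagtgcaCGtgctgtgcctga
Mt2: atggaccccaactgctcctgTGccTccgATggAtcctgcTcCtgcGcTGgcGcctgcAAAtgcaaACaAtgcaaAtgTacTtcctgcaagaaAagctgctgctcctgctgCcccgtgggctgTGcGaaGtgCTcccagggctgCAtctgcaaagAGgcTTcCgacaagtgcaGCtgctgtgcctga
They differ at 38 positions (79.6% identical), and the longest stretch without a difference is 20 bases. Read length and the treatment of reads with several matches were not stated in the labels.

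The stretches before the annotated starts of Mt1, Mt2 and Slc30a1, the genes that MTF1 is known to induce, are shown with the core of the metal response element. The core was searched as TGCACNC and TGCGCNC on both strands, in the 250 bases before the start site that RefSeq gives for build GRCm38.p6 (the mm10 coordinates). Capitals mark a core, each sequence is RefSeq's, on the plus strand, and it ends before the first transcribed base that GENCODE or RefSeq annotates for the gene. A core on the minus strand therefore appears as its reverse complement.
Mt1, chr8:94178839-94179081: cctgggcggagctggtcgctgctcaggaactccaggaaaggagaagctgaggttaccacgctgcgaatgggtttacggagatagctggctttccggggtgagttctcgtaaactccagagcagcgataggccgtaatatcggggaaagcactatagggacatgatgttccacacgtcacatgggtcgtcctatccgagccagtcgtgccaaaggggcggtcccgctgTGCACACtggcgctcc
Mt2, chr8:94172368-94172617: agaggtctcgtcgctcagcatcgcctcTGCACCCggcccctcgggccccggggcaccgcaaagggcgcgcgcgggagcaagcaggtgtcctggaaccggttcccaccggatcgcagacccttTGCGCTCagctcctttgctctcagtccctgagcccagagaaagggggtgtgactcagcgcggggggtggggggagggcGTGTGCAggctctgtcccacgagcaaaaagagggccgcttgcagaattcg
Slc30a1, chr1:191906531-191906766: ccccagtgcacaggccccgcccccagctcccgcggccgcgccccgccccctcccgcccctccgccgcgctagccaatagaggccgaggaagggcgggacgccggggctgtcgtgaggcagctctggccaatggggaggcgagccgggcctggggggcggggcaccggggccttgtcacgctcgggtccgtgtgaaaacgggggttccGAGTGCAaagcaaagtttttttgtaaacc
In the stretches shown, Mt2 held 3 cores, Mt1 held 1 and Slc30a1 held 1. Of 32851 RefSeq windows of 250 bases, 21.4% held at least 1 core and 1.26% held at least 3. Windows were matched for 7 of the 9 genes. Slc30a10 also held 3 cores, of which a pair overlapped on opposite strands, and Mtf1, Slc39a1 and Slc39a2 held none of these letters. GENCODE lists further Mt1 transcripts that begin 122 and 152 bases downstream of the RefSeq start. Its Mt2 transcripts begin 46 and 242 bases downstream of the RefSeq start of Mt2. The bases between each RefSeq start and these later starts are not in the stretches shown. The 1 core of Mt1 and the 3 cores of Mt2 are therefore no counts for the whole promoters. Within the first 200 bases of an annotated transcript, Mt1 held 4 cores and Mt2 held 3. Of 58616 protein-coding transcripts 0.107% held at least as many as Mt1, 0.597% at least as many as Mt2, and 19% at least 1. Such matches describe letters and show no binding.

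The levels of the 9 genes spanned 4 orders of abundance. Values are FPKM, fragments mapped to a gene divided by its transcript length and by the library's mapped fragments, so levels can be compared between genes. Mt2 was the highest of the 9 in every library (2050 to 2484 FPKM) and Mt1 the second (1423 to 2141 FPKM). Among all genes of the table Mt2 ranked between 23 and 28 and Mt1 between 28 and 39 by FPKM, and together they made up 0.686% to 0.889% of a library's FPKM total. The 0.889% is that of WT 2, whose total lacks the albumin gene Alb. Alb was listed at 0 there, against 25551 to 32670 FPKM in the other libraries. Slc39a14 (111 to 164 FPKM) and Slc39a1 (115 to 138 FPKM) followed with overlapping ranges and changed places in KO 2. Slc39a4 stood at 63.1 to 99.3 FPKM and Slc30a1 at 26.9 to 30.6 FPKM, each apart from its neighbours in the order. Slc39a2 (0.234 to 10.4 FPKM) and Mtf1 (5.97 to 7.53 FPKM) overlapped, and Slc30a10 was lowest at 0.114 to 0.312 FPKM.

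**Figure D1:**
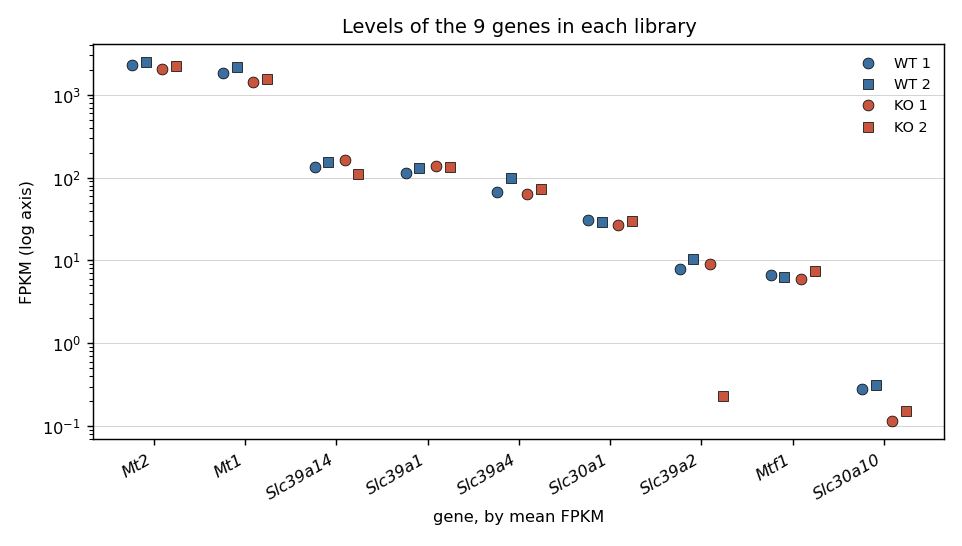
Level of each of the 9 genes in each library, in FPKM on a log axis, with genes ordered by their mean; circles and squares are replicates 1 and 2, blue WT and red KO. Slc39a2 in KO 2, at 0.234 FPKM, lies far below its other 3 libraries, which stood between 7.80 and 10.4 FPKM.

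The libraries as a whole differed little. FPKM totals ran from 498348 to 546967, 10327 to 10424 genes reached 1 FPKM in a library, and depth was estimated at 15400000 to 17100000 fragments from the smallest steps of the values. Prom1 stood at 0.571 and 1.22 FPKM in WT 1 and WT 2, was listed at 0 in KO 1 and reached 0.0458 FPKM in KO 2. Hepatocyte markers were abundant (9 of 10 listed were found; Alb reached 32670 FPKM), although Alb was listed at 0 in WT 2. Lymphocyte and neutrophil markers summed to at most 1.25 FPKM.

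KO and WT were compared with limma on log2(FPKM + 1) over the 10407 genes that averaged 1 FPKM or more, which 8 of the 9 genes did and Slc30a10 did not. With 2 libraries a genotype, the p-values rest on these samples only. In limma each gene's variance is also drawn toward a trend over all genes tested. A p-value or SE therefore does not measure that gene's own spread alone. With Benjamini-Hochberg adjustment, 0 of the 8 had an adjusted p under 0.05, beside 0% of all genes tested (759 genes had an unadjusted p under 0.05), and their adjusted p ran from 0.682 to 0.968. At an unadjusted p under 0.05 there was 1 of the 8, Mt1, against 7.29% of all genes tested. Libraries KO 1 and KO 2 were both lower than WT 1 and WT 2 for 2 of the 8, Mt1 and Mt2, against 19.8% of all genes tested. They were both higher for 1, Slc39a1, against 18.3%. Over all 9 genes 7 log2 differences were below 0 and 2 above, with a median of -0.16 beside -0.0011 over all genes tested. The smallest two-sided p of an exact permutation test on these 4 libraries is 0.333, which cannot pass the threshold.

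Mt1 had the lowest p of the 8 tested genes. It stood at 1809 and 2141 FPKM in WT 1 and WT 2 and at 1423 and 1535 FPKM in KO 1 and KO 2. The lower WT library thus exceeded the higher KO library, and the KO mean (1479 ± 79.2 FPKM, SD, n = 2) was 0.749 of the WT mean (1975 ± 235 FPKM). The log2 difference was -0.41 (SE 0.16), with an unadjusted limma p of 0.0463 and an adjusted p of 0.682. With 1 library left out the difference ran from -0.53 to -0.29, the latter without WT 2, where Mt1 was highest.

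Mt2 had the same order of libraries as Mt1, with a smaller difference. It stood at 2296 and 2484 FPKM in WT and at 2050 and 2219 FPKM in KO. The libraries of the genotypes did not overlap, but the gap between WT 1 and KO 2 was smaller than the distance between the replicates of either genotype. The log2 difference was -0.16 (SE 0.16; limma adjusted p = 0.839), and -0.033 after quantile normalization. An antisense gene, Gm45774, overlaps Mt2 over 749 bases on the opposite strand, and it is not known whether the counting used strand.

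The balance between the 2 messages could be read within each library, free of the scaling between libraries. The ratio of Mt1 to Mt2 FPKM was 0.788 in WT 1 and 0.862 in WT 2, and 0.694 in KO 1 and 0.692 in KO 2. Both KO ratios lay below both WT ratios and were close to each other, with a log2 difference of -0.25. The exact permutation p was 0.333, two-sided, the smallest that 4 libraries allow.

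The full metallothionein cluster lies on chromosome 8 in the order Mt4, Mt3, Mt2, Mt1, all on the plus strand. Mt4 (94137197 to 94139031 in mm10) is known from stratified epithelia and Mt3 (94152607 to 94154146) from brain, and Mt2 (94172664 to 94173568) and Mt1 (94179082 to 94180327) are the forms used in liver. All 4 genes passed the expression filter, and in each of the 4 the higher KO library was under the lower WT library, a placement found in 19.8% of all genes tested. Their median log2 difference was -0.62; none had an adjusted p under 0.05 and 3 had an unadjusted p under 0.05 (limma), as did 7.29% of all genes tested. Mt3 passed the filter through WT alone (its KO mean was 0.883 FPKM) and so had to differ. Without it the placement held for 3 of 3 genes, with a median of -0.41 and 2 unadjusted p under 0.05.

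Mt3 stood at 3.0 and 5.40 FPKM in the WT libraries and 0.47 and 1.30 FPKM in the KO libraries, and its log2 difference was -1.46 (SE 0.32; limma adjusted p = 0.519). Mt4 had 3.51 and 2.60 FPKM in the WT libraries and 1.41 and 1.15 FPKM in the KO libraries, and its log2 difference was -0.82 (SE 0.19; limma adjusted p = 0.525). These were larger differences than those of Mt1 and Mt2, at far lower levels. The values of Mt3 correspond to about 17.1, 31.1, 2.67 and 6.75 fragments in WT 1, WT 2, KO 1 and KO 2. Those of Mt4, with 1 annotated transcript of 398 bases, correspond to about 11.8, 8.85, 4.73 and 3.54, so counting error is large in both genes. With 1 library left out the log2 difference of Mt3 ran from -1.80 to -1.12 and that of Mt4 from -0.99 to -0.66.

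**Figure D2:**
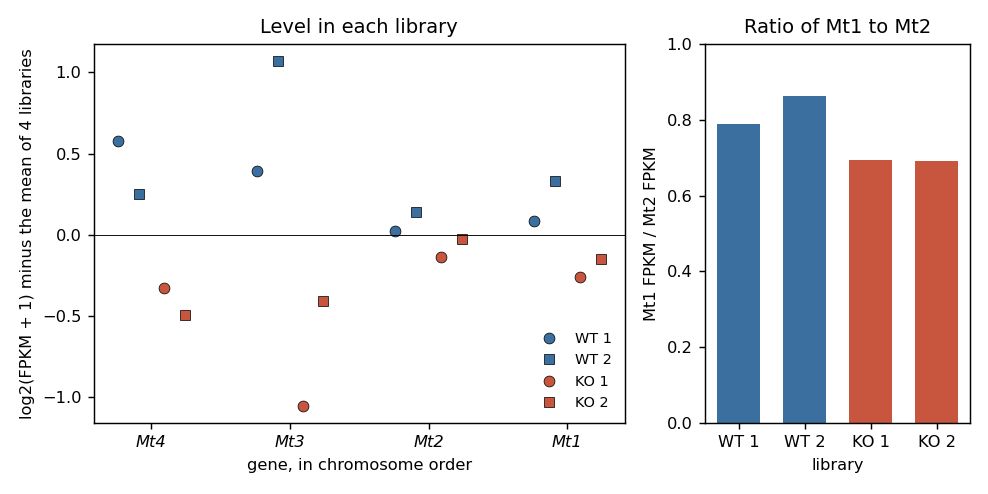
Left, log2(FPKM + 1) of the 4 metallothionein genes in each library, centred on each gene's mean, with genes in chromosome order; right, the ratio of Mt1 to Mt2 FPKM in each library. Every red point lies below both blue points of its gene, and the ratio is 0.788 and 0.862 in WT against 0.694 and 0.692 in KO. Mt3 passed the filter through WT alone, with a KO mean of 0.883 FPKM.

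Mtf1 (chromosome 4, 124802104 to 124849800) encodes the zinc-sensing factor itself, and its libraries overlapped between genotypes. It stood at 6.70 and 6.27 FPKM in WT and at 5.97 and 7.53 FPKM in KO, where the KO libraries held both the lowest and the highest value. The log2 difference was 0.044 (SE 0.15; limma adjusted p = 0.968). Its end overlaps 1110065P20Rik on the opposite strand over 721 bases, which stood at 22.6 to 29.9 FPKM.

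Genes tied to MTF1 in mouse liver were lower more often than higher. Of 8 listed and tested, 7 had a log2 difference below 0 and 1 above, with a median of -0.22; KO 1 and KO 2 were both lower than either WT library for 4, against 19.8% of all genes tested, and both higher for 1, against 18.3%. Over all genes tested 50.3% were below 0. Mt1, Mt2 and Slc30a1 are in this list, and Mt1 and Mt2 are among the 4 with both KO libraries lower. The list was not split by whether MTF1 raises or lowers a gene, so these counts are no measure of MTF1 activity. None of the 8 had an adjusted p under 0.05 by limma. Apart from Mt1, the members with the largest differences were Ndrg1 (-0.99, adjusted p = 0.518), a stress gene that hypoxia also induces, Gclc (-0.36), the catalytic subunit of glutathione synthesis, and Selenow (-0.28), a small selenoprotein. Gclc overlapped between genotypes, with 206 FPKM in KO 1 and 95.9 FPKM in KO 2. Slc30a1 (chromosome 1, 191906767 to 191913247), the best known transporter target of MTF1, stood at 30.6 and 29.2 FPKM in WT and at 26.9 and 30.3 FPKM in KO. Its libraries overlapped, with a log2 difference of -0.063 (SE 0.11; limma adjusted p = 0.921), so that the plasma-membrane zinc exporter did not share the placement of Mt1 and Mt2. The difference between these genes was not tested. An antisense gene overlaps the first 761 bases of Slc30a1.

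Slc30a10 (chromosome 1, 185454848 to 185468762), a ZnT family member best known as a manganese exporter of liver and gut, was near the lower end of detection. It stood at 0.278 and 0.312 FPKM in WT and at 0.114 and 0.154 FPKM in KO, about 26.5, 30.1, 10.9 and 13.4 fragments on its single annotated transcript of 5836 bases. The KO libraries lay below the WT libraries, and the KO mean was 0.455 of the WT mean. On the log2(FPKM + 1) scale, which shrinks such low values, the difference was -0.19 (SE 0.049), with an unadjusted limma p of 0.0175 and an adjusted p of 0.755 over the 15152 genes fitted without the filter. It was -0.76 with a pseudocount of 0.1 and -0.044 with a pseudocount of 5. Gm2061 overlaps its first 721 bases on the opposite strand.

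Slc39a14 (chromosome 14, 70303469 to 70351425, minus strand), the ZIP protein that brings zinc, manganese and iron into hepatocytes and that interleukin-6 induces, had libraries that overlapped between the genotypes. It stood at 135 and 153 FPKM in WT and at 164 and 111 FPKM in KO, so the KO libraries again held both extremes. The log2 difference was -0.088 (SE 0.19; limma adjusted p = 0.946), and it was -0.37 without KO 1 and 0.19 without KO 2. Slc39a1 (chromosome 3, 90248172 to 90253612), a ZIP importer of the plasma membrane found in most tissues, stood at 115 and 129.8 FPKM in WT and at 138 and 136 FPKM in KO. Both KO libraries were higher, by 0.16 on the log2 scale (SE 0.11; limma adjusted p = 0.776), which is less than the distance between the WT libraries (0.17).

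Slc39a4 (chromosome 15, 76612383 to 76617384, minus strand), best known as the zinc importer of the intestine, was the third most abundant of the 4 ZIP genes chosen. It stood at 66.8 and 99.3 FPKM in WT and at 63.1 and 72.5 FPKM in KO. WT 2 was apart from the other 3 libraries, which spanned 63.1 to 72.5 FPKM. The log2 difference of -0.27 (SE 0.20; limma adjusted p = 0.813) became 0.017 without WT 2.

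Slc39a2, a zinc importer with low expression in most tissues, differed more between the KO libraries than between the genotypes. It stood at 7.80 and 10.4 FPKM in WT 1 and WT 2, at 9.03 FPKM in KO 1 and at 0.234 FPKM in KO 2. KO 1 lay between the WT libraries and KO 2 was far below all of them, with about 8.33 fragments if all came from its longest transcript, against 304 to 409 in the others. The log2 difference was -1.51 (SE 0.89; limma adjusted p = 0.758), -3.02 without KO 1 (adjusted p = 0.0256) and 0.0046 without KO 2 (adjusted p = 0.995). So the call without KO 1 rests on the 1 library KO 2. The KO libraries differed by 3.02 in log2 for Slc39a2. Of the 10407 genes tested 2, Slc39a2 and the predicted gene Gm42791, differed at least that much between the KO libraries. Between the WT libraries 3 genes did, Alb, Mid1 and Mup19. Slc39a2 was chosen by symbol, but this count was made after its values were seen. The median gene differed by 0.16 between the KO libraries and by 0.13 between the WT libraries.

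Slc39a2 (chromosome 14, 51892889 to 51896745 in mm10) begins inside the end of Mettl17 (51884842 to 51893039), a gene of mitochondrial ribosome assembly on the same strand, with 151 bases in common. Mettl17 stood at 17.6 and 22.5 FPKM in WT, at 19.2 FPKM in KO 1 and at 8.46 FPKM in KO 2. It was thus also lowest in KO 2, with a log2 difference of -0.60 (SE 0.35; limma adjusted p = 0.753). The order of the 4 libraries was the same in both genes. Whether the assignment of fragments between the 2 genes plays a part in the value of Slc39a2 in KO 2 was not tested.

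**Figure D3:**
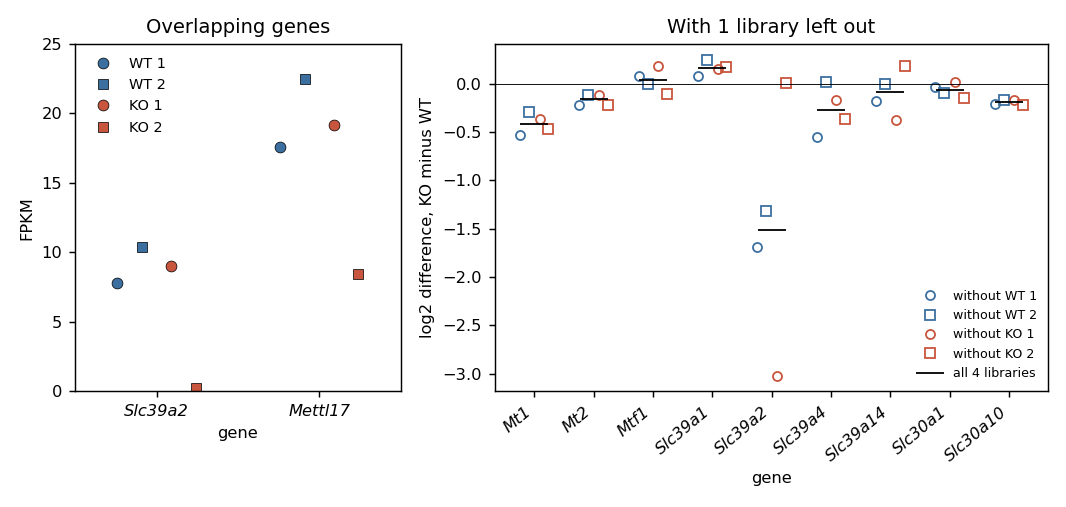
Left, FPKM of Slc39a2 and of the overlapping gene Mettl17 in each library; right, the log2 difference between KO and WT of each of the 9 genes with 1 library left out (open symbols) and with all 4 (bars). KO 2 is the lowest library of both genes at left, and at right Slc39a2 runs from -3.02 without KO 1 to 0.0046 without KO 2.

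The wider transporter families were measured as well. Of 14 ZIP genes 12 passed the filter, and 8 had a log2 difference above 0 and 4 below, with a median of 0.059. The KO libraries were both higher than either WT library for 5 of the 12, against 18.3% of all genes tested, and both lower for 0, against 19.8%. None had an adjusted p under 0.05 and 2 had an unadjusted p under 0.05 (limma), against 7.29% of all genes tested. These were Slc39a13 (0.37, adjusted p = 0.643), a ZIP of intracellular membranes known from connective tissue, and Slc39a6 (0.34, adjusted p = 0.66), a ZIP of the plasma membrane. Slc39a13 stood at 15.6 and 14.7 FPKM in WT and at 22.2 and 17.9 FPKM in KO, and Slc39a6 at 10.8 and 11.6 FPKM in WT and at 15.7 and 13.3 FPKM in KO. In both, KO 1 was the highest library. Summed over the 14 ZIP genes the FPKM came to 509 and 579 for WT and to 579 and 515 for KO, so the family total overlapped between the genotypes.

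Of 10 ZnT genes 7 passed the filter and 2, Slc30a2 and Slc30a8, were listed at 0 in every library. Log2 differences were above 0 for 5 of the 7 and below 0 for 2, with a median of 0.099. KO 1 and KO 2 were both higher than WT 1 and WT 2 for 2 of the 7, against 18.3% of all genes tested, and both lower for 0, against 19.8%. Slc30a3 passed the filter through KO alone (its WT mean was 0.474 FPKM), and without it 4 of 6 were above 0, with a median of 0.083, and 1 had both KO libraries higher. Slc30a4, which loads zinc into vesicles, stood at 20.0 and 19.2 FPKM in WT and at 25.1 and 23.1 FPKM in KO, with a log2 difference of 0.28 (SE 0.10; limma adjusted p = 0.652). Slc30a3, known as the zinc transporter of synaptic vesicles, was scattered at low levels, with 0.0417 and 0.906 FPKM for WT against 2.90 and 0.974 FPKM for KO (log2 difference 0.98, SE 0.43; limma adjusted p = 0.687). The family total came to 117 and 111 FPKM for WT and to 119 and 124 FPKM for KO.

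**Figure D4:**
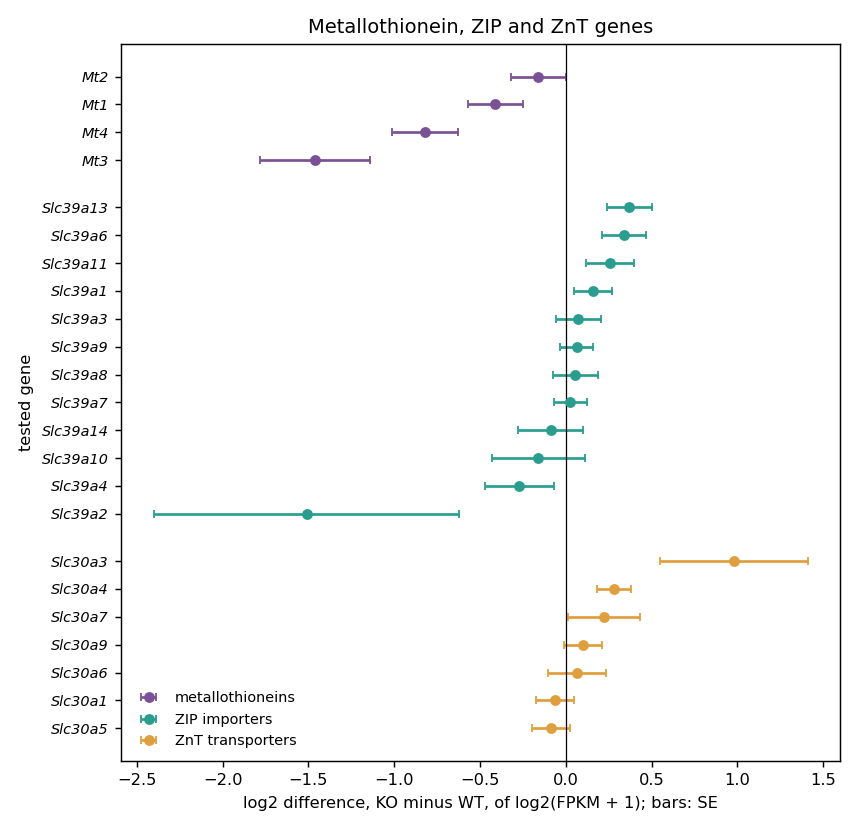
Log2 difference between KO and WT, on the log2(FPKM + 1) scale, of the 4 metallothionein, 12 ZIP and 7 ZnT genes that passed the filter; points are limma estimates and bars their SE. All 4 metallothioneins lie below 0, and 8 of 12 ZIP and 5 of 7 ZnT genes lie above it. Mt3 passed the filter through WT alone and Slc30a3 through KO alone. Without these, 3 of 3 metallothioneins lie below 0 and 4 of 6 ZnT genes above it. No gene passed the adjusted threshold.

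Copper, which metallothioneins also bind, showed no shared direction among its handling genes. Of 12 tested, 5 had a log2 difference above 0 and 7 below, with a median of -0.014 and no adjusted p under 0.05 by limma. The largest difference was that of Cp, the secreted copper oxidase ceruloplasmin, at 1452 and 1594 FPKM in WT and at 1154 and 1129 FPKM in KO (-0.41, adjusted p = 0.614). The log2 difference was 0.0092 for the copper importer gene Slc31a1 and -0.16 for the copper exporter gene Atp7b. Among 9 genes of metal and electrophile stress 8 were tested, 2 above 0 and 6 below, with a median of -0.068. The largest differences were those of Gclc (-0.36), Slc7a11 (0.26) and Nqo1 (0.24). Of these only Nqo1 had both KO libraries higher, and the libraries of Gclc and Slc7a11 overlapped. The heme oxygenase gene Hmox1, which heavy metals induce, had a log2 difference of -0.17 and overlapping libraries.

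Targets of the known inducers of liver metallothioneins were lower in the KO libraries more often than higher. Of 10 glucocorticoid receptor targets 9 had a log2 difference below 0, with a median of -0.32, and KO 1 and KO 2 were both lower than either WT library for 8, against 19.8% of all genes tested. The largest differences were those of Fkbp5 (-0.85, adjusted p = 0.487), a chaperone partner of the receptor, Zbtb16 (-0.60, 0.536) and Tsc22d3 (-0.52, 0.664), both classic target genes. Of 13 interleukin-6 and STAT3 targets 12 were below 0, with a median of -0.38. For 5 of the 13, KO 1 and KO 2 were both lower than either WT library, against 19.8% of all genes tested. Among them were the acute-phase genes Saa3 (-1.60, adjusted p = 0.519), Saa2 (-0.70, 0.703) and Saa1 (-0.68, 0.693). Neither group had a gene with an adjusted p under 0.05 by limma. The median level of both groups was highest in WT 2, which was also the highest library of Mt1, Mt2 and Mt3. Mt4 was highest in WT 1 instead (3.51 FPKM, against 2.60 FPKM in WT 2). So were some interleukin-6 targets, such as Saa2 (3112 against 2878 FPKM) and Lcn2 (5883 against 5535 FPKM). The part of both groups in the metallothionein values was not tested.

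Markers of other liver cells differed in level between the libraries. Of 10 macrophage markers 9 were tested and 7 had a log2 difference above 0, where 50.3% of all genes tested were below 0. Clec4f passed the filter through KO alone (its WT mean was 0.999 FPKM), and without it 6 of 8 were above 0. The summed level of the 10 markers came to 380.5 and 377 FPKM for WT and to 433 and 501 FPKM for KO, most of it from Cd68. Marco (0.87) and Lyz2 (0.85) had the largest log2 differences. The defining Kupffer cell gene Clec4f stood at 0.599 to 1.57 FPKM. Sinusoidal endothelial markers summed to 58.5 and 53.6 FPKM in WT, 83.1 FPKM in KO 1 and 42.7 FPKM in KO 2, stellate and fibroblast markers to 14.2, 16.4, 24.9 and 10.8 FPKM in the same order of libraries, and cholangiocyte markers to 35.9, 32.5, 37.3 and 23.5 FPKM. KO 1 was thus highest and KO 2 lowest in all 3 lists. Of the 9 genes 3 were higher in KO 1 than in KO 2 (Slc39a1, Slc39a2 and Slc39a14) and 6 were lower. Of the tested families 8 of 12 ZIP and 2 of 7 ZnT genes were higher in KO 1, without a share over all genes tested to set them against. The part of the marker levels in these values was not tested, and in such bulk libraries fewer cells of a type and less RNA per cell cannot be told apart.

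Genes whose pattern over the 4 libraries was most like that of Mt1 were found by the Euclidean distance between mean-centred log2(FPKM + 1) profiles, among 2272 named genes with a range of at least 0.5. The nearest 3 were Samhd1 (distance 0.033), Ifit3b (0.033) and Zfp560 (0.041). Samhd1, for example, stood at 7.33 and 8.82 FPKM in WT and at 5.70 and 6.21 FPKM in KO, with WT 2 highest and KO 1 lowest as in Mt1. For Mt2, whose own range of 0.28 lay under that minimum, the nearest were Ccdc84 (0.16), Apoc3 (0.16) and Chkb (0.17). Over 4 libraries many genes share any given order, so these names describe the profile only.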

How the data were processed

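mRNA was sequenced in 4 libraries, made with a stranded TruSeq kit per the labels' protocols. Per the submitters' processing notes the tools were STAR 2.5.0, Cufflinks and Cuffdiff 2.2.1 on mm10 (annotation and use of strand: not given in the sources used here). A value per gene and library was deposited by the authors and read as FPKM from these tools and from values that are not whole; no header states the unit. Such values are not counts, so no count model was used. Of 22079 identifiers 21984 matched GENCODE M21. Values were transformed as log2(FPKM + 1), genes averaging 1 FPKM or more were kept, and KO was compared with WT by limma 3.58.1 (R 4.3.3, intensity trend, two-sided, Benjamini-Hochberg over 10407 genes, threshold 0.05) with genotype as the only term; the code was tested on simulated data. Depth was estimated from the smallest steps in 3907 genes with 1 transcript, assuming fragments of 200 bases; fragment numbers are estimates.

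The text names the 9 genes and, from each further list, up to 4 genes with the largest difference. It also names all genes of lists of up to 5 and the 3 nearest profiles of Mt1 and Mt2. Slc31a1, Clec4f, Cd68, Lcn2, Slc30a2, Slc30a8, Mettl17, 1110065P20Rik, Gm42791, Mid1 and Mup19 were added after their values were seen. The genes and lists were chosen with earlier results of these data known. The alternatives tried were other pseudocounts, filters and scalings, limma without its trend, a replicate block and leaving out each library. List counts over genes that averaged 1 FPKM or more in each genotype were added after the values were seen.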

Additional observations from a re-analysis of the deposited data

How the results depend on the processing

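No gene passed the adjusted limma threshold with all 4 libraries, where 759 had an unadjusted p under 0.05, and none did under any other pseudocount, filter, scaling or trend setting tried. Leaving out 1 library, where the lone sample is assumed to vary like the other genotype, gave from 0 to 8 genes, with 8 without WT 1 and 5 without KO 1; at an unadjusted p under 0.05 there were from 318 (without WT 2) to 1227 (without KO 2). Equal replicate numbers are not said to pair animals, and the difference between replicates correlated between genotypes at 0.151 across 10407 genes; with a replicate block 0 genes passed, 1054 had an unadjusted p under 0.05, and the median of the 9 genes was -0.16. That median ran from -0.21 to -0.095 with 1 library left out and was -0.085 with a pseudocount of 5. Of 107 values of single genes under an alternative, 6 changed sign, all 6 with 1 library left out, and 1 passed the threshold, Slc39a2 without KO 1 (-3.02). Those that changed sign were Mtf1 (-0.10), Slc39a2 (0.0046) and Slc39a14 (0.19) without KO 2, Slc39a4 (0.017) and Slc39a14 (0.0022) without WT 2, and Slc30a1 (0.019) without KO 1; their other ends with 1 library left out were 0.19 for Mtf1, -0.55 for Slc39a4, -0.37 for Slc39a14 and -0.15 for Slc30a1. The log2 difference in the ratio of Mt1 to Mt2 ran from -0.31 to -0.19 with 1 library left out. Low fragment numbers limit Mt3, Mt4, Slc30a10 and Slc39a2 in KO 2; for the abundant genes the number of libraries is the limit.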
